A study of Homo sapiens with 6 samples.

Results

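Open chromatin of MCF-10A cells with the PIK3CA mutation E545K was set beside that of cells with wild-type PIK3CA (WT), peak by peak. The comparison took the deposited E545K list of 89416 peaks and the WT list of 98910 peaks, 188326 of the 295073 peaks in the 3 lists of the series; the third list, with 106747 peaks, is from cells with the mutation H1047R. Peaks were matched across the lists, and any shared base, 1 bp or more, made them partners. Peaks with a partner are described by their area, summit value and width, and peaks without one by position and nearest gene.

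MCF-10A is a non-tumorigenic human breast epithelial line. The WT cells were the parental line, bought from a cell bank and kept in DMEM/F12 with 5% horse serum, 20 ng/ml EGF, insulin, hydrocortisone and cholera toxin. The E545K and H1047R cells were knock-in lines that had been made earlier, and were kept in that medium without EGF. All cells then spent 24 h in phenol red-free medium with 1% stripped serum, 0.2 ng/ml EGF, insulin, hydrocortisone and cholera toxin before nuclei were collected. Genotype and maintenance EGF therefore cannot be told apart. The labels do not say how many clones the lines represent or whether the samples of a genotype came from separate cultures, and the peak lists do not show the edited bases, so that the genotypes rest on the labels. Each genotype had 2 samples, and the authors' peak caller pooled them into 1 list. No value per sample and no sequencing depth is known, no test across samples could be made, and every difference below is between 2 lists without a replicate check.

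PIK3CA encodes the p110-alpha catalytic subunit of phosphoinositide 3-kinase, which turns growth factor receptor signals into the membrane lipid PIP3 and so activates AKT. AKT in turn holds FOXO transcription factors out of the nucleus and feeds mTOR. E545K changes the helical domain of p110-alpha, where the regulatory subunit normally restrains the enzyme, and is one of the frequent PIK3CA mutations of breast cancer. ATAC-seq maps open chromatin by the cuts of the transposase Tn5, so that promoters and enhancers in use appear as peaks.

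Sequences of peaks among those that differ most between the lists are shown first, as the summit and 100 bases on each side in hg38, plus strand. Capitals mark letters that match 1 of the 26 motifs sought. The opening pair of lines comes from the E545K summits of pairs of peaks with the largest gain of area, and the last line from the WT summit of a pair among those with the largest loss, leaving out windows that touch a UTR.
PIM3, chr22:49966358-49966558: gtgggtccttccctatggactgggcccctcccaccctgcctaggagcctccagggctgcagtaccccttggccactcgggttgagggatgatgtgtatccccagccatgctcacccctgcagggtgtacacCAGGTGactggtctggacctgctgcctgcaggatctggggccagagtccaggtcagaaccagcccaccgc
No gene within 100 kb, chr1:48115056-48115256: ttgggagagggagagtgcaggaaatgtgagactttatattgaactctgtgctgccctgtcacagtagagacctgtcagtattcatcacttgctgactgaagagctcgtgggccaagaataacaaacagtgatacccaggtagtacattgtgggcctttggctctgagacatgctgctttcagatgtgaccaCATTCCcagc
OR4C45, chr11:50075933-50076133: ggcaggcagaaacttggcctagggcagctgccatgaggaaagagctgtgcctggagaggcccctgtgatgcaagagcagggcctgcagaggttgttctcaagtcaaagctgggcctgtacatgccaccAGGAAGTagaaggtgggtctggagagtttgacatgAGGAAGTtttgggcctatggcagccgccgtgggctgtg

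The PIM3 window holds CAGGTG, the E-box bound by SNAI and ZEB repressors (written CACCTG on the other strand). Of pairs that were not past 2-fold, 19.3% hold it within 100 bp of the WT summit. The chromosome 1 window holds CATTCC, the TEAD element GGAATG read on the other strand, with a share of 17.7% in those pairs. OR4C45 has the ETS form AGGAAGT at 2 places (6.27%). A match is a description of the letters and not a bound site.

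The next lines are from peaks among those with the highest summit values and no partner, E545K before WT.
TACR2, chr10:69375840-69376040: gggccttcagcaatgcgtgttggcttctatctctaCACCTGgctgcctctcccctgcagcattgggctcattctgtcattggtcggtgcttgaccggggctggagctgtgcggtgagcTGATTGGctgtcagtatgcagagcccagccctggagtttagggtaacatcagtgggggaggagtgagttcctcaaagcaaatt
PIAS1, chr15:68017307-68017507: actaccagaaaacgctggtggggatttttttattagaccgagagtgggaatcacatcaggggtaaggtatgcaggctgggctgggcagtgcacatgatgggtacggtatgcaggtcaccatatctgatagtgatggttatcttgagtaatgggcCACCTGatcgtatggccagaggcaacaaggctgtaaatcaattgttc
No gene within 100 kb, chr19:31154068-31154268: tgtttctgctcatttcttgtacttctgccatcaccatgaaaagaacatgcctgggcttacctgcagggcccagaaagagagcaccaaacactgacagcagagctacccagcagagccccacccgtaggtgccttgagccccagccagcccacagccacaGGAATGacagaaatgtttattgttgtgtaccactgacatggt

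Among E545K peaks with a partner, 19.4% hold CACCTG and 3.45% hold CCAATCA, the NFY element seen on the other strand at TACR2. Among WT peaks with a partner, 17.8% hold GGAATG. None of the 6 windows holds the FOXO, RUNX or GATA elements described below, which says only that those letters are not in these windows.

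Of the E545K peaks, 76522 overlapped 1 WT peak and 1642 overlapped at least 2; of the WT peaks, 77743 overlapped 1 E545K peak and 1091 at least 2. Where 1 peak of each list overlapped only each other they were called a pair, and there were 74410 pairs. The area is the authors' value for a peak, what the peak caller integrates over its width, so that it depends on height and width; the summit value is the -log10 p at its highest point. Areas were mostly smaller in E545K, with a median of 708 against 839 in WT, and the median log2 ratio of E545K to WT was -0.22, a factor of 0.856. In all, 28.9% of pairs had the larger area in E545K. Summit values had a median log2 ratio of -0.15 (4.23 against 4.76) and widths one of -0.01. Nothing in the sources shows that the lists are on 1 scale, so each change below is relative to the median pair.

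After this centring, 3433 pairs were past 2-fold higher in E545K (4.61%) and 2811 past 2-fold lower (3.78%). So 55.0% of the pairs past 2-fold were higher. That split rests on the scale: it was 28.6% with no centring (2109 higher and 5267 lower), 46.4% by area per bp (1085 and 1255) and 75.2% by summit value (109 and 36). Each list ends at an area of 200, so a pair near that limit in WT could not be past 2-fold lower. In the decile of pairs with the smallest mean area, 2.33% were higher and 0.0403% lower; in the decile with the largest, 0.403% and 0.0672%.

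**Figure D1:**
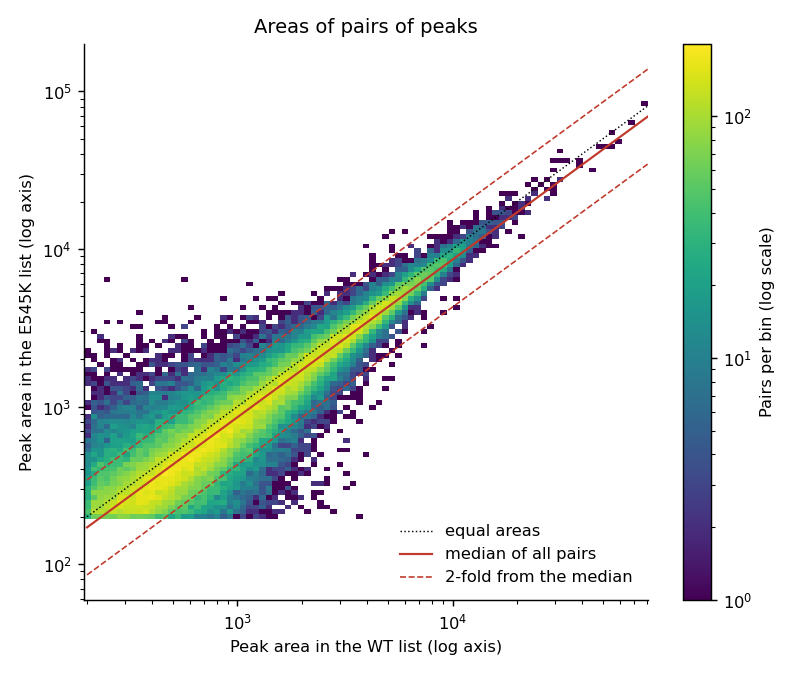
Area of each of the 74410 pairs in the WT list (x, log axis) and the E545K list (y, log axis), with colour giving pairs per bin on a log scale. The solid line is the median pair, at 0.856 times the WT area, and the dashed lines are 2-fold from it; the spread narrows as areas grow.

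In pairs past 2-fold the medians of height and of width both differed. In higher pairs the median area was 358 in WT and 906 in E545K, the median summit value 3.18 and 4.28, and the median width 411 and 722 bp. In lower pairs the medians were 926 and 301 for area, 4.80 and 3.01 for summit value, and 588 and 355 bp for width. The summit value lay on the same side of its own median change in 98.9% of higher and 99.9% of lower pairs. Most widths moved the same way too: the 10th percentile of the log2 width change was 0.16 in higher pairs. In lower pairs the 90th percentile was -0.14. By the stricter limit of 1.5-fold, width was past it the same way in 58.5% of higher and 48.1% of lower pairs, and within it in 41.5% and 51.8%. Their summits lay a median of 10 bp apart between the lists, against 6 bp in all other pairs.

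Promoters, meaning peaks whose midpoint lay at most 1 kb from a coding gene's start, were the steadiest class. Of 10265 promoter pairs 1.53% were higher and 0.546% lower, against 5.66% and 3.77% in exons, 5.21% and 4.33% in introns and 4.95% and 4.32% between genes. Promoter peaks are also the strongest, and part of that gap went with strength. In the fourth decile of mean area, 19.1% of 199 promoter pairs and 15.3% of the others were past 2-fold in either direction, while in the ninth decile it was 0.453% of 2650 and 2.80%. GC content moved with direction: where the WT summit window had the least GC (median 37.8%), 4.56% of pairs were higher and 7.03% lower, and where it had the most (74.1%), 1.91% and 0.601%. Whether this reflects composition bias of the libraries was not tested.

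Pairs past 2-fold lay close to others of the same direction. Of 2352 higher pairs with another pair within 10 kb, 17.8% had a higher pair as nearest neighbour and 0.893% a lower one; among pairs that were not past 2-fold those shares were 4.74% and 3.15%. Of 1540 lower pairs, 10.0% had a lower neighbour and 1.43% a higher one. By chromosome, the median change ranged from -0.12 on chromosome 21 to 0.07 on chromosome 8, where 6.65% of pairs were higher. Of 546 windows of 5 Mb, none had a median change above 0.3 and 7 had one below -0.3. All 7 lay within the first 45000000 bp of chromosome 5, the lowest at -0.46 over 103 pairs from 40000001 to 45000000. Without chromosomes 5 and 8, 2952 pairs were higher and 2450 lower. Copy number of these lines was not tested.

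The labelled cell type was checked by promoter peaks of marker genes. Here a promoter peak is the largest one that touches the 1 kb on either side of the start, wherever its midpoint lies. The CCL20, CSF3 and CCND3 promoter values below follow the same rule. Of 24 basal and myoepithelial markers, 21 had a promoter peak in both lists, among them the basal keratins KRT5 and KRT17, whereas TP63 had none at the start used. Of 22 luminal markers, 15 had one in both lists and 7 in neither. Of all 19111 coding genes, 12601 had a promoter peak in both lists and 5910 in neither. The luminal counts are near those shares and so do not mark a cell type. Among markers of other cells, 18 of 23 immune genes (PTPRC and CD3D included) and 15 of 21 neural, endothelial and fibroblast genes (GFAP and PECAM1 included) had none in either list. Others did have one: the monocyte marker CD14 had 2988 in WT, 2883 in E545K and 6149 in H1047R. PDGFRA had 257 in WT and 508 in E545K, and CDH5 had 204 in WT and no E545K peak. KRT16 and KRT17 share 1 peak, and keratin, SPRR, S100 and KLK genes have close relatives. The sources used here do not say how reads that match several places were treated.

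The pair with the largest gain lay on chromosome 8 from 142271581 to 142282616, in an intron but with no coding start within 100 kb. Its area was 254 in WT and 6614 in E545K, a centred log2 change of 4.93, with no peak in H1047R. It was broad and low, 11036 bp wide in E545K with a summit value of 2.80. A like shape was seen downstream of PIM3, a serine/threonine kinase of the PIM family (chromosome 22, 49964179 to 49969846). Its area was 249 in WT, 3564 in E545K and 1383 in H1047R, and its E545K peak was 5668 bp wide with a summit value of 3.28. A narrow peak differed as much on chromosome 1, from 48114536 to 48115679. There the area was 220 in WT, 2902 in E545K and 3016 in H1047R, and the summit value was 2.18 in WT and 5.96 in E545K. TRIB1, a pseudokinase that directs proteins to degradation, had a pair 9551 bp past its start with 288 in WT, 3338 in E545K and 1078 in H1047R.

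On the other side, the largest loss was in an exon 14062 bp past the start of SLCO4A1, an organic anion transporter (chromosome 20, 62655775 to 62657354). Its area was 3640 in WT, 200 in E545K and 1116 in H1047R, a change of -3.96. Upstream of NCAPG2, a condensin II subunit, an intronic pair 35396 bp from the start had 2792 in WT and 209 in E545K, with no H1047R peak. Near OR4C45, an olfactory receptor, the area was 2673 in WT, 238 in E545K and 1597 in H1047R. Upstream of IP6K3, an inositol hexakisphosphate kinase, it was 3402 in WT, 319 in E545K and 2052 in H1047R. These 4 WT peaks were 789 to 1580 bp wide, with summit values from 7.15 at IP6K3 to 7.70 at OR4C45. The gains at PIM3 and on chromosome 8 were wider and lower.

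Among promoters, GCA, which encodes the calcium-binding protein grancalcin, gained most. Its area was 328 in WT, 3155 in E545K and 1028 in H1047R, and its summit value 3.18 in WT and 8.81 in E545K. KLK5, a serine protease of the epidermis, had 216, 1750 and 771 in that order. CLDN1, a tight junction claudin, had 587, 2699 and 1755, and NEK10, a kinase, 252, 1631 and 1678. HOXA9, a homeobox gene of the HOXA cluster, lost most, with 2204 in WT, 265 in E545K and 2069 in H1047R. PI3, which encodes the elastase inhibitor elafin, followed with 2262, 321 and 2501. For TPM1, a tropomyosin of actin filaments, the areas were 1284, 288 and 1889. LURAP1 had 1794, 261 and 986, and CTF1, a cytokine of the IL-6 family, 2041 and 383 with no H1047R peak. So the H1047R area was close to that of WT at HOXA9 and PI3, above it at TPM1 and below it at LURAP1 and CTF1.

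Each pair went to the coding gene whose start was closest, up to 100 kb away, which 55302 pairs had; it may thus lie outside that gene or inside another. Over all of them the median change was 0.00, 4.41% were higher and 3.48% lower. Of the 23 gene lists, 13 had more higher than lower pairs; by summit value only 4 lists did, since few pairs passed 2-fold. Near all coding genes 7916 E545K and 13639 WT peaks lacked a partner, the background for the counts of such peaks below. Lists share members, CLDN4, EGFR, CAV1, DUSP1 and ERRFI1 among them, so their counts are not independent.

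**Figure D2:**
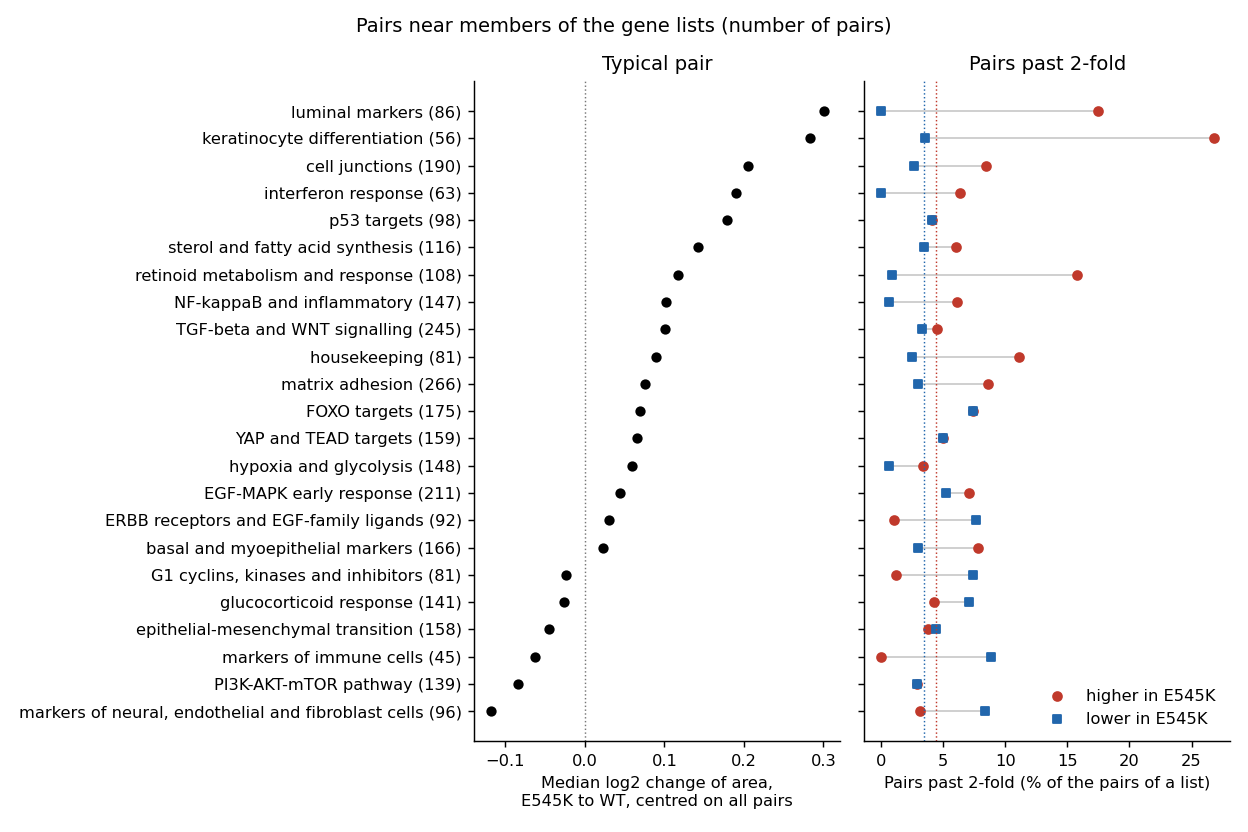
Pairs nearest to members of each gene list, with the number of pairs after the name. Left, the median centred log2 change of area; right, the share past 2-fold higher (circles) and lower (squares) in E545K, with dotted lines at 4.41% and 3.48% for all pairs near coding genes. Keratinocyte differentiation, luminal and retinoid genes have the largest shares of higher pairs.

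Genes of keratinocyte differentiation, which build the cornified layer of stratified epithelium, had the largest share of higher pairs. Of their 56 pairs 15 were higher (26.8%) and 2 lower. The median change was 0.28, and 0.06 with no centring, but by area per bp 2 pairs were higher and 2 lower. Kallikrein proteases on chromosome 19 made up 7 of the higher pairs. KLK8 had a pair 1166 bp before its start (E545K peak from 51000961 to 51002983) with areas with 449 in WT, 3628 in E545K and 1292 in H1047R. Another, 8746 bp past the start, had 647, 3628 and 2123. For KLK6 the areas were 915, 2276 and 1648 at the promoter and 319, 2250 and 1528 upstream. KLK5 had a second pair with 1405, 4729 and 3226.

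All 7 kallikrein pairs had their H1047R area between those of WT and E545K. Cornified envelope genes were also among the higher pairs. IVL, which encodes involucrin, had 1504 in WT, 2670 in E545K and 2227 in H1047R at its promoter. SPRR1A, a small proline-rich precursor, had 262, 501 and 667. TGM1, the transglutaminase that crosslinks the envelope, had 1616, 3098 and 2179 in an intron. The 2 lower pairs were at the promoters of PI3 and SBSN, which encodes suprabasin, where areas were 734, 283 and 976. Per bp, the IVL changes were -0.70 and -1.04, because its E545K peaks were 1870 and 2810 bp wide against 555 and 572 bp in WT. Peaks without a partner near these genes numbered 19 in E545K and 7 in WT, against 7916 and 13639 near all coding genes.

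Luminal markers, genes typical of the secretory and hormone-sensing cells of the breast, had 15 higher pairs of 86 (17.4%) and no lower one. The median change was 0.30, and 0.08 with no centring, where 8 were higher and 2 lower; by area per bp 2 were higher. The epithelial ETS factors gave 7 of the 15. Upstream of EHF the WT area was 941, the E545K area 2198 and the H1047R area 1740; an intronic pair had 321, 987 and 529. ELF3 had pairs of 1583, 3096 and 3025, of 911, 1578 and 1334, and of 1320, 2390 and 2151, each past its start. ELF5 had a weak one, with 358 in E545K. All 7 lay away from promoters.

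PROM1, which encodes the surface glycoprotein CD133, had a pair 57022 bp upstream with 1503 in WT, 3926 in E545K and 2139 in H1047R. Upstream of KRT19, a simple-epithelial keratin, the areas were 272, 904 and 559. CD24, a surface glycoprotein, had pairs of 313, 988 and 896 and of 338, 591 and 274. Promoter pairs of the hormone-sensing regulators went in different directions without passing 2-fold: the change was 0.93 at FOXA1, 0.71 at GATA3 and -0.94 at ESR1, the oestrogen receptor. Unlike the pair upstream of KRT19, the promoter pairs of the simple-epithelial keratins KRT18 and KRT8 were within 2-fold, with changes of -0.14 and -0.30. So the luminal list did not move as a block.

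**Figure D3:**
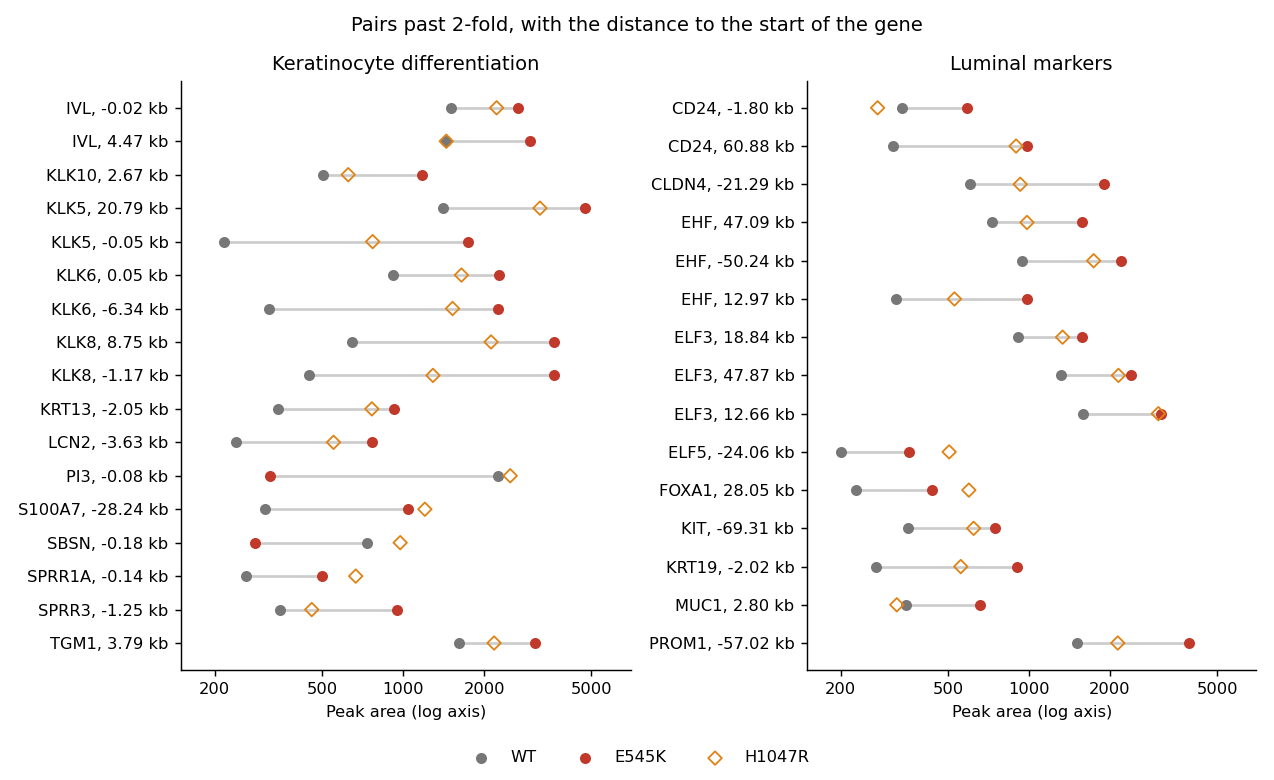
Areas (log axis) of every pair past 2-fold near genes of keratinocyte differentiation (left) and luminal markers (right), 1 line per pair, with its distance to the start of the gene. E545K (filled red) lies above WT (grey) in 15 of 17 pairs on the left and in all 15 on the right; open diamonds give H1047R.

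Some strong sites of these genes were not pairs, because 1 E545K peak covered several WT peaks. There were 2616 groups of overlapping peaks that were no pair, in either direction, with 3754 E545K and 4424 WT peaks, which with the pairs and the unpartnered peaks make up the lists. With areas summed, 230 groups were past 2-fold higher and 44 lower, but 1 peak that spans several of the other list also takes in the gaps between them. Where 1 E545K peak covered several WT peaks (1530 groups), the median covered length was 2194 bp in E545K and 1760 bp in WT, 13.9% were higher by summed area and 54 by area per covered bp. In the 981 groups with the reverse the lengths were 1420 and 1585 bp, 1.33% were higher by summed area and 5 per bp. So the split by summed area partly follows from how the groups are made. KRT15, a keratin of basal and progenitor cells, had 4494 over 3662 bp in 3 WT peaks and 27585 over 10812 bp in 1 E545K peak across its promoter (chromosome 17, 41509836 to 41520647). Per bp this was 1.23 and 2.55, a centred change of 1.28. A pair next to it, upstream, had 1123 in WT, 5861 in E545K and 4011 in H1047R. At the ELF3 promoter the sums were 7935 over 4162 bp in WT and 30345 over 12523 bp in E545K, a change per bp of 0.57. CLDN4 had 5269 over 2754 bp and 13613 over 5072 bp (0.71 per bp), and CLDN7 6953 over 3958 bp and 12080 over 5727 bp (0.48 per bp). These promoters were chosen after their values were seen; of 74 list genes with such a group at the promoter, 5 were past 2-fold higher by summed area, IFITM10 being the fifth, and 0 lower.

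Cell junction genes had 16 higher and 5 lower pairs of 190, with a median change of 0.21, which became -0.02 with no centring, where 11 were higher and 10 lower. Among tight junction genes, the OCLN (occludin) promoter had 2290 in WT, 5198 in E545K and 5128 in H1047R. An intronic pair had 684, 1815 and 2100. CLDN4 had one of 603, 1896 and 929 upstream. CLDN1 was mixed: its promoter and an intronic pair were higher, while pairs of 2234, 910 and 1639 and of 2347, 836 and 1489 within 20 kb of the start were lower. Adherens junction genes differed among themselves. CDH1, which encodes E-cadherin, had 3 higher intronic pairs, the largest of 1888, 4007 and 3157. Its partner alpha-catenin (CTNNA1) had a lower one of 1587, 241 and 2007. Of the desmosomal genes, DSP (desmoplakin) had 3 higher pairs and PKP1 (plakophilin 1) a lower one of 1443, 531 and 883.

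Retinoid genes govern how vitamin A is taken up, oxidised to retinoic acid and sensed. They had 17 higher pairs of 108 (15.7%) and 1 lower, with a median change of 0.12. With no centring 9 were higher and 4 lower and the median was -0.11; by area per bp 4 were higher, 0 lower and the median was -0.00. The retinol importer STRA6 had 3 higher pairs of 6. At its promoter the area was 1031 in WT, 2238 in E545K and 2114 in H1047R, and at intronic sites 1992, 4222 and 5590 and 469, 1442 and 2259. ALDH1A1, which makes retinoic acid, had 3 higher pairs of 5, the strongest of 424, 793 and 625. The receptor RXRA had 4 of 16, the strongest of 1892, 3293 and 2546.

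The lower pair was near CYP26B1, an enzyme that degrades retinoic acid, with 931 in WT, 207 in E545K and 496 in H1047R. Near retinoid genes 55 E545K and 17 WT peaks lacked a partner (7916 and 13639 near all coding genes), of which RXRA accounted for 13 and 0. At DHRS3, a retinal reductase, 3 pairs were higher by area and their area per bp was below the median pair, with changes of -0.37, -0.48 and -0.53. Those E545K peaks were 1450 to 2617 bp wide against 358 to 951 bp in WT. STRA6 kept a positive change per bp in all 3 pairs, from 0.27 to 1.08.

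Basal and myoepithelial markers had 13 higher and 5 lower pairs of 166. Their median change was 0.02, and -0.00 when centred on housekeeping promoters. The myoepithelial surface peptidase MME (CD10) had 1182 in WT, 2610 in E545K and 2152 in H1047R at its promoter. TP63, a regulator of basal epithelial identity, had a lower pair 42781 bp upstream with 1815, 401 and 1022. EGFR, also in this list, had 2 lower pairs, of 1743, 472 and 1504 and of 1070, 450 and 814.

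Matrix adhesion genes had 23 higher and 8 lower pairs of 266. The median change was 0.08, and -0.15 with no centring, where 17 were higher and 16 lower. ITGB6, a beta subunit of integrins found in epithelia (chromosome 2, 160099667 to 160200313), accounted for 7 of the higher pairs and had none lower among 24. This was the most for any gene of the 23 that met the naming rule for gains. The 6 pairs within the gene had areas from 202 to 848 in WT and from 889 to 3579 in E545K. No H1047R peak overlapped 3 of the 7. Their E545K peaks were 634 to 3546 bp wide with summit values from 3.10 to 4.44, and a pair 57201 bp upstream was taller, with 1306, 2902 and 3126. By area per bp 6 of the 7 pairs stayed past 2-fold and none turned. Another 11 E545K peaks near ITGB6 lacked a partner, and 1 WT peak did, against 7916 and 13639 near all coding genes. NEDD9, a docking protein of focal adhesions, had 2 higher pairs, both without an H1047R peak. By contrast paxillin (PXN), a focal adhesion adaptor, had 3 lower pairs, the largest of 1651, 466 and 1445.

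Other genes with several higher pairs and no lower one were DUSP5 (6 of 17), TGFBR2 (6 of 18), DLG5 (6 of 20) and ST14 (5 of 8). By area per bp 1 of the 6 DUSP5 pairs, 2 of the 6 of TGFBR2, 1 of the 6 of DLG5 and 2 of the 5 of ST14 turned lower, and only 2 pairs, both near TGFBR2, stayed past 2-fold. DUSP5 is a phosphatase that inactivates nuclear ERK. Its areas ran from 226 to 777 in WT and from 500 to 2357 in E545K, with no H1047R peak at 4 of the 6. TGFBR2, the type II TGF-beta receptor, had its strongest pair 27450 bp upstream, with 3169, 5847 and 4088. ST14 encodes matriptase, a membrane protease of epithelia, and had tall pairs of 1859, 4492 and 3504 and of 1910, 3667 and 3220. Genes with the most lower pairs and none higher were CAPNS2 (5 of 7), SLC16A1 (5 of 11), TGFBI (5 of 12), ASPH (5 of 18) and SLC22A23 (5 of 20), of 7 that met the rule. Of these 25 pairs 4 stayed past 2-fold by area per bp, and 2 near CAPNS2 turned, at 0.13 and 0.46.

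TGFBI, a matrix protein induced by TGF-beta, had 8150 in WT, 3110 in E545K and 5372 in H1047R 22206 bp upstream. A second pair, past its start, had 5272, 1536 and 2081. SLC16A1, the lactate transporter MCT1, had a pair of 1672, 639 and 1547. CAPNS2, a calpain small subunit, had its strongest pair 2121 bp past the start, with 2541, 828 and 895. For all 5 genes both summit value and area were lower in each pair, and summit values in WT ran from 3.92 to 9.63.

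Genes of growth factor signalling were mixed. Around ERBB receptors and EGF-family ligands 1 pair of 92 was higher and 7 were lower (7.61%), though the median change was 0.03. Besides the EGFR pairs, the lower ones were near ERBB3 (1058 in WT, 386 in E545K and 469 in H1047R), the ligands AREG (861, 329 and 417), HBEGF (777, 255 and 1244) and NRG2 (2109, 872 and 2412), and LRIG3 (1692, 530 and 1690). The higher one was near the ligand EPGN. At promoters no pair of this list was lower; the change ran from 0.06 at LRIG1 to 0.60 at AREG. Near EGFR 9 WT peaks and 0 E545K peaks lacked a partner, against 13639 and 7916 near all coding genes.

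EGF-MAPK early response genes had 15 higher and 11 lower pairs of 211, and 11 and 14 with no centring, with a median change of 0.04 that became -0.18. DUSP5 gave 6 of the higher ones. DUSP1, another MAP kinase phosphatase, had 275 in WT, 1276 in E545K and 1373 in H1047R 26863 bp past its start. FOS, an AP-1 subunit, had 566, 1841 and 1321 upstream. Several lower pairs lay near inhibitors of the pathway. ERRFI1, a feedback inhibitor of EGFR, had 3086, 716 and 3227, and DUSP4 had 991, 200 and 485. SPRED1 had 1085 and 254 with no H1047R peak, and SPRY4 had 1428, 477 and 860. SPRY1, SPRY4 and ERRFI1 also had higher pairs, so inhibitors went both ways.

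PIK3CA had 1 pair, 15899 bp upstream (chromosome 3, 179132042 to 179132874 in WT). Its area was 2306 in WT, 1588 in E545K and 2231 in H1047R, a centred change of -0.31, within 2-fold. At the PIK3CA promoter 1 WT peak overlapped 2 E545K peaks, so it was no pair. Summed areas there were 7476 in WT, 6633 in E545K and 7244 in H1047R, a centred change of 0.05 (0.13 per bp). Across the PI3K-AKT-mTOR pathway 4 pairs of 139 were higher and 4 lower, close to the background, with a median change of -0.08 and of -0.31 with no centring. Of the other catalytic subunits, PIK3CB had a pair of 2239, 4340 and 4869 and PIK3CD one of 596, 254 and 532. Among phosphatases that act on inositol lipids, INPP4B had a higher pair of 253, 724 and 281, whose change per bp was -0.04, and INPP5D (SHIP1) a lower one of 1214, 453 and 817. IRS2, an insulin receptor adaptor, had 622, 239 and 266. Downstream, RHEB, the GTPase that activates mTOR, had 252, 691 and 624, and RICTOR, a subunit of mTORC2, had 1314, 541 and 1346. AKT1, AKT2 and MTOR had no pair past 2-fold. In this list 18 E545K and 44 WT peaks lacked a partner; near all coding genes too there were more in WT (7916 and 13639). Of the 44, 9 lay near IRS2 and 6 near RICTOR, a gene of the chromosome 5 stretch described above.

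FOXO targets, genes switched on when AKT is low, had 13 higher and 13 lower pairs of 175 (7.43% each), above the background in both directions. With no centring 8 were higher and 16 lower. CITED2, a transcriptional coregulator, had 3 lower pairs and no higher one. The largest, 3730 bp past its start, had 4407 in WT and 1044 in E545K with no overlapping H1047R peak, and the other pairs had 1138, 332 and 270 and 1532, 525 and 295. The stress-response genes SESN3 (1099, 267 and 1161) and SESN1 (605, 244 and 351) and the adaptor gene IRS2 also had a lower pair. PDK4, a kinase that restrains pyruvate oxidation, was higher at its promoter, with 1830, 3157 and 3380. TXNIP, an inhibitor of glucose uptake, had 5091, 12556 and 1142 in a pair 5650 bp past its start. FBXO32 and TNFSF10 had pairs in both directions.

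Around G1 regulators 1 pair of 81 was higher and 6 lower (7.41%), with a median change of -0.02. The lower ones were near the cyclins CCND3 (1002, 395 and 5257) and CCNE1 (1413, 604 and 943), the kinase CDK6, the inhibitors CDKN1A (921, 224 and 1201) and CDKN1C, and RBL1. The H1047R value at CCND3 equals that of its promoter peak, where WT had 4404 and E545K 3651, so it is not like for like. The higher one was near CDKN1C too, with 291 in WT, 1287 in E545K and no H1047R peak. With no centring 1 was higher and 9 lower. Glucocorticoid response genes had 6 higher and 10 lower pairs of 141, with a median change of -0.03; all media held hydrocortisone. KLF9 had 3 lower pairs, the strongest of 1073, 291 and 772. CEBPD had 1305, 291 and 564, and CRISPLD2 890, 239 and 2574. The counts were 4 and 15 with no centring, and 2 and 2 by area per bp.

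NF-kappaB and inflammatory genes had 9 higher and 1 lower pair of 147, with a median change of 0.10 (-0.12 with no centring, where 8 were higher and 3 lower; by area per bp 4 and 3). The chemokine CCL20 had 320 in WT, 1498 in E545K and 1591 in H1047R past its start. The acute phase gene SAA1 had 1028, 4368 and 11925. At the CCL20 promoter itself WT had 307, E545K had no peak and H1047R had 1423. TNFAIP3, which encodes the inhibitor A20, had 575, 1837 and 1960 and 634, 1492 and 1443. The lower pair was in an exon near CSF3, a granulocyte growth factor, with 2260, 889 and 1000, and the CSF3 promoter had a peak in WT, of 2414, and none in E545K or H1047R. Interferon genes had 4 higher and 0 lower of 63, among them IRF1 with 425, 1288 and 2982.

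For the remaining lists the background is again 4.41% and 3.48%. The higher and lower counts were 7 and 4 of 116 for sterol and fatty acid synthesis, 11 and 8 of 245 for TGF-beta and WNT signalling, and 8 and 8 of 159 for YAP and TEAD targets. They were 5 and 1 of 148 for hypoxia and glycolysis, 4 and 4 of 98 for p53 targets, and 6 and 7 of 158 for epithelial-mesenchymal transition. With no centring the lower pairs were the more in each: 4 and 5, 7 and 14, 7 and 11, 4 and 8, 3 and 8, and 2 and 13 in the same order. In the sterol list HMGCS1, an enzyme of cholesterol synthesis, had 1390 in WT, 349 in E545K and 4466 in H1047R; it too lies in the chromosome 5 stretch described above. DKK3, a secreted WNT modulator, had 2108, 412 and 1163. Housekeeping genes, meant as a yardstick, had 9 higher and 2 lower pairs of 81, which is 11.1% and 2.47%. Their 20 promoter pairs had changes from -0.24 to 0.21, so those past 2-fold lay away from promoters. Markers of other cell types had few pairs, with 0 higher and 4 lower of 45 for immune cells and 3 and 8 of 96 for neural, endothelial and fibroblast cells. Their lower shares, 8.89% and 8.33%, were above those of the ERBB and G1 lists.

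Peaks without a partner numbered 11252 in E545K (12.6%; 95% Wilson interval 12.4 to 12.8) and 20076 in WT (20.3%; 20.0 to 20.5); these intervals cover counting error only. They were mostly weak. Their median area was 293 in E545K and 289 in WT, and 73.0% and 77.9% had an area under 400. E545K peaks without a partner were wider, with a median of 417 against 268 bp, and lower, with a median summit value of 2.83 against 3.09. More of them lay within 1 kb of a peak of the other list, 19.7% against 11.6%, and fewer beyond 10 kb, 29.2% against 45.4%. Promoters held 2.90% (2.60 to 3.22) in E545K and 1.61% (1.44 to 1.79) in WT. An H1047R peak overlapped 51.6% of the E545K and 59.6% of the WT peaks without a partner. In the lowest decile of area 39.0% of E545K and 67.0% of WT peaks lacked a partner; in the highest it was 0.0671% and 0.0202%.

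**Figure D4:**
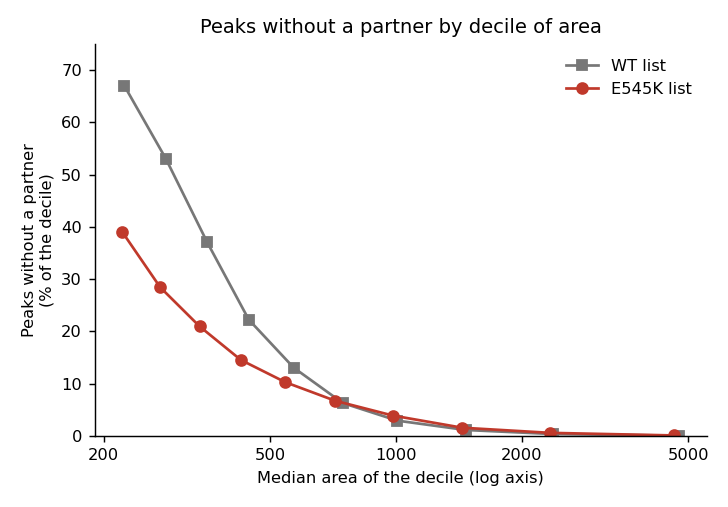
Share of peaks without a partner (y, percent) in each decile of area of the WT (squares) and E545K (circles) lists, at the median area of the decile (x, log axis). It drops from 67.0% and 39.0% in the lowest decile to below 0.1% in the highest.

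By summit value the strongest E545K peak without a partner lay 41148 bp past the start of TACR2, a tachykinin receptor gene (chromosome 10, 69375189 to 69376350). This is beyond the end of TACR2, in an intron of another gene. The peak had an area of 3169 and a summit value of 7.50, with an H1047R area of 3491. The nearest WT peak lay 6339 bp away. The next, upstream of PIAS1, a SUMO ligase, had 1783, with 557 in H1047R. One E545K peak of 1788 was at the promoter of ZNF300, a zinc finger gene, 55949 bp from any WT peak, and H1047R had 1736 there. Another, of 1550, lay 10353 bp past the start of HSD11B2, the enzyme that inactivates cortisol, with 1492 in H1047R. It was beyond the end of HSD11B2, in an exon of another gene. All 6 E545K peaks named by this rule overlapped an H1047R peak.

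Among WT peaks without a partner the highest summit, 8.36, was intronic, 59428 bp past the start of CDYL, a chromodomain corepressor (chromosome 6, 4835371 to 4836293). Its area was 3414, with 1331 in H1047R. MB21D2 had 3174 with 989 in H1047R, and HOPX, a homeodomain-only cofactor, 3205 with 864, each away from the promoter. A WT peak of 2705 on chromosome 19, from 31153674 to 31154539, had no coding start within 100 kb, and the nearest E545K peak was 1123121 bp away. Another WT peak, of 2242, started at 31213973, and neither overlapped an H1047R peak. Chromosome 8 had the highest share of E545K peaks without a partner, 18.4%, and chromosome 13 that of WT peaks, 26.4%.

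Motif content at summits differed between higher and lower pairs. For every pair, also those higher in E545K, the WT summit was searched. Shares are of WT summits with the letters within 100 bp on either strand, set against pairs within 2-fold weighted to the same GC and area. RUNX elements (TGTGGTT) stood at 9.12% (8.20 to 10.1) of higher pairs against 6.60% and at 5.59% of lower pairs against 7.31%. The ETS form AGGAAGT was at 8.88% of higher pairs against 6.41%, and at 6.01% of lower against 6.58%. GATA elements (AGATAAG) were at 2.91% against 2.15% of higher and at 1.92% against 2.46% of lower pairs. NFY elements (CCAATCA) were at 3.32% against 2.47% of higher pairs.

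Lower pairs held the FOXO element TTGTTTAC at 2.85% (2.29 to 3.53) against 1.38%, and higher pairs at 1.14% against 1.21%. The 7-letter forkhead core TGTTTAC, which is contained in it, was at 6.05% against 4.40% of lower pairs. NF-kappaB elements (GGGANTTCC) were at 1.46% against 0.830% and the glucocorticoid receptor element at 5.51% against 3.82%. The latter was above its reference in higher pairs too, at 4.22% (3.60 to 4.95) against 3.42%. GRHL elements (AACCNGTT), the sites of grainyhead-like factors, were at 2.24% against 3.18% of lower pairs and at 2.91% against 2.75% of higher ones. AP-1 elements (TGANTCA) were less frequent than in the weighted reference in both, at 31.7% against 37.9% and at 37.2% against 42.3%. The CTCF core was at 0.757% against 2.81% of higher and 0.605% against 2.24% of lower pairs. With the whole WT peak of each pair searched, the FOXO element was at 5.16% against 2.44% of lower pairs. Other shares of lower pairs moved to or past their reference: RUNX 13.2% against 12.7%, AP-1 51.3% against 49.9%, GRHL 5.23% against 5.25% and GATA 6.90% against 5.98%. In higher pairs RUNX was then at 16.3% against 12.5%. The excess of the others shrank, to 16.3% against 13.8% for AGGAAGT, 6.64% against 5.82% for GATA and 6.35% against 5.41% for NFY.

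Peaks without a partner were compared with partnered peaks of the same list in the same way, each at its own summit. In E545K the ETS form AGGAAGT was at 10.2% against 5.95%, RUNX at 8.24% against 5.84%, GRHL at 3.18% against 2.41%, and AP-1 at 0.66 times its reference share of 33.4%. In WT AGGAAGT was at 4.97% against 7.29%, RUNX at 5.38% against 7.47%, GRHL at 2.20% against 3.26% and AP-1 at 35.8% against 38.7%. The FOXO element was at 1.14% against 1.31% in E545K and at 1.87% against 1.29% in WT. So within 100 bp of the summit RUNX, AGGAAGT and FOXO letters lay on the same side of their reference in unpartnered peaks as in pairs of that direction. Over whole peaks FOXO did not, at 2.24% against 1.90% in unpartnered E545K peaks and 1.86% against 2.38% in higher pairs. Nor did RUNX, at 7.80% against 10.4% in unpartnered WT peaks and 13.2% against 12.7% in lower pairs.

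**Figure D5:**
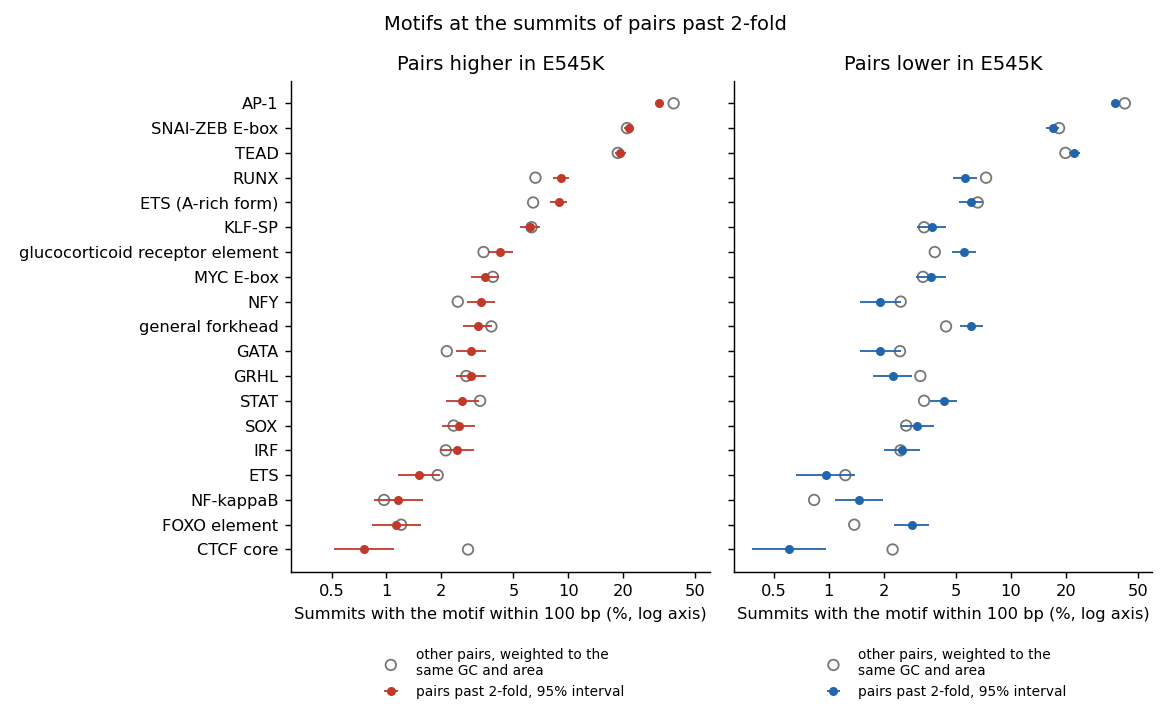
Share of WT summits with each motif within 100 bp (x, percent, log axis) for the 3433 higher and 2811 lower pairs (filled, with 95% Wilson intervals for counting error) and for pairs within 2-fold weighted to the same GC and area (open). RUNX, GATA and the A-rich ETS form AGGAAGT lie above the reference in higher pairs, FOXO and NF-kappaB in lower pairs, and the glucocorticoid receptor element in both.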

How the data were processed

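ATAC-seq measured open chromatin in 6 samples, 2 per genotype. Per the submitters' processing notes, tools used upstream included Trim Galore 0.4.0, cutadapt, FastQC, SAMtools and Genrich 0.6.1, with genome build hg38. Which aligner was used is not stated there or in the labels. The authors deposited 1 peak list per genotype, pooled over its samples, so sequencing depth is unknown. In the deposited lists the signal of a peak is its area and the summit is a -log10 p value. As deposited by the authors, the score values had been made from area per bp, scaled and capped at an upper limit. That rule held in all 89416 E545K and 98910 WT peaks, so a capped score does not give area per bp.

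Overlaps, changes and motif shares were computed with Python 3.11.15, numpy 2.4.6, pandas 2.3.3, scipy 1.17.1 and pysam 0.24.0, and figures with matplotlib 3.10.9. Counts of partners were checked with bedtools 2.31.1 (2 counts, difference 0). Gene starts came from GENCODE 44 (19111 coding genes). Log2 changes were centred on the median of all pairs and called past 2-fold. H1047R areas are sums over overlapping H1047R peaks, which may reach beyond the pair. There were 23 gene lists with 542 genes in all and 26 motifs, and reference shares were weighted over deciles of GC and area. The members and lists were chosen with earlier results of these data known.

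Named were the 6 pairs per direction with the largest change among those with an area of at least 1000 in the higher list and a summit moving the same way, the 6 unpartnered peaks per list with the highest summit, the 5 promoter pairs and 5 genes (at least 4 pairs past 2-fold, none the other way) per direction, up to 2 members per list and direction, and PIK3CA; other list members named were chosen after their values were seen. On simulated lists made from the WT list, 2000 of 2000 removed partners were found and 0 of 96910 kept ones were called missing, 200 of 200 changed pairs were recovered and 3 of 96710 unchanged pairs were called, and 500 of 500 planted motifs were found. The planted changes were well past the 2-fold limit, and unchanged pairs varied less in area than the real pairs. Peaks were not split or changed in width, and no area limit was applied. So the simulation checks the code and gives no rate of false calls for the real lists. No test across samples was possible with pooled lists. Values of a few genes and 2 sequences are not reported here. Alternatives were other overlap rules, area limits, centring, measures, promoter windows and motif windows.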

Additional observations from a re-analysis of the deposited data

How the results depend on the processing

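No paired analysis was possible because each list pools both samples of its genotype; for the same reason no sample could be left out. Depth limits are unknown. Raising the area limit to 400 in both lists gave 6563 E545K peaks without a partner (11252 as reported), 621 strong E545K and 683 strong WT ones (1139 and 1052), 1536 higher and 995 lower pairs, and median log2 ratios of -0.14 for summit value and -0.0012 for width. Strong means an area in the upper 50 percent of the list; by summit value there were 658 strong E545K ones, and with lists of equal length 687 strong WT ones. Higher and lower pairs numbered 2109 and 5267 with no centring, 1085 and 1255 by area per bp, and 109 and 36 by summit value, by which 4 gene lists had more higher than lower pairs (13 as reported). Promoters held 1.91% of E545K and 0.936% of WT unpartnered peaks within 500 bp of a start, and 5.46% and 4.04% within 2 kb. Motifs found in at least 20 peaks of a set, with a share at least 25% above the reference, numbered 11 in unpartnered E545K peaks (5 as reported), 1 in higher pairs (4) and 10 in lower pairs (5) over whole peaks, and 7 in higher pairs within 50 bp of the summit. Of 94 pairs named by the rules for single pairs, 38 stayed past 2-fold by area per bp, 51 kept their direction and 5 turned. Those 5 were near INPP4B (-0.044), TNC (-0.18), ISG15 (-0.014), GAPDH (-0.12) and MDM2 (-0.31), because those E545K peaks were wider. By summit value 13 of the 94 stayed past 2-fold and 81 kept their direction. Pairs of the genes named for several pairs were counted apart, and there 6 of 30 higher and 2 of 25 lower pairs turned by area per bp. The IVL and DHRS3 pairs that turned are not among the 94 either. Another 29 values for the main comparisons stayed close to those reported.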

Other observations

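At some sites the E545K and H1047R areas lay far apart; these were picked after their values were seen. TXNIP had a pair with 5091 in WT, 12556 in E545K and 1142 in H1047R, so that the H1047R area was the lowest. SAA1, an acute phase gene, had 1028, 4368 and 11925, with the highest area in H1047R. ITGB8, an integrin subunit, had 943, 368 and 4418. At HOXA9, PI3, CTNNA1 and CDKN1A the E545K area was the lowest of the 3 lists and the H1047R area was near or above WT.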
